A study of Homo sapiens with 9 samples.

Results

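U937 is an established human leukocyte line with features of early monocytic cells. AML1-ETO joins the DNA-binding Runt domain of AML1 (RUNX1) to the corepressor ETO, and ETO2-GLIS2 joins the related corepressor ETO2 to the zinc fingers of GLIS2, so that both fusion proteins carry an ETO-type moiety behind different DNA-binding domains. The 209 genes described here, of 10780 at a comparable level, were chosen because they went in opposite directions in the lines that express the fusion proteins: they fell in U937-AE and rose in U937-EG. RNA-seq was done on 3 stable lines made with a retroviral pRetrox-Tet3G vector: U937-AE (HA-tagged AML1-ETO, clone #4), U937-EG (HA-tagged ETO2-GLIS2, clone #14) and U937-CTR (empty vector). Each fusion line is a single clone, and every line, U937-CTR included, was sampled at 0, 12 and 48 h of 5 μg/ml doxycycline, with 1 library per condition and 9 libraries in all.

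The members were chosen by their own levels. A gene was taken when (FPKM + 0.1) at 48 h over 0 h of the same line was at most 0.5 in U937-AE and at least 1.5 in U937-EG, and when it had at least 1 FPKM both in U937-AE at 0 h and in U937-EG at 48 h. FPKM divides a gene's reads by the length of its exons and by the total of the library, so levels of different genes can be compared per length. RHOU, AC090559.1, CBFA2T3, GLIS2 and ITGAM were left out by name. Of 60623 genes, 10780 had the level the rule asks for, and 209 of these were members. In U937-AE 1287 of the 10780 genes (11.9%) were at or under the lower threshold, in U937-EG 2041 (18.9%) were at or over the upper one, and the members are 1.94% of the genes at that level. The members made up 16.2% of the U937-AE genes and 10.2% of the U937-EG genes. Since the 48 h and 0 h libraries of both fusion lines chose the members, the changes in them are a description. The U937-CTR libraries and the 12 h libraries were not used for the choice.

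With 1 library per condition no difference has a replicate check, and no test between conditions was possible. The reads behind the FPKM values were recovered from the steps between them, which gave totals of 15136398 to 18443639 reads on genes per library, and whole reads for 208 of the 209 members. ITGB2 was the exception, and it has no interval. Intervals in brackets are exact 95% Clopper-Pearson intervals of the ratio of reads on the log2 scale. They cover counting error only, since PCR copies of 1 molecule count as separate reads, and differences between cultures or clones are not in them. In bulk RNA a smaller share of cells that express a gene and less RNA per cell cannot be told apart. Reads were counted from libraries of a kit that does not mark strand, so where a gene has an antisense partner the source of its reads cannot be told apart.

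The transgenes followed the labels. RUNX1T1, which encodes ETO, had 0.512, 22.2 and 28.7 FPKM in U937-AE at 0, 12 and 48 h and at most 0.0240 FPKM in the 6 other libraries. CBFA2T3, which encodes ETO2, had 4.10, 11.4 and 12.6 FPKM in U937-EG, 4.75, 6.38 and 6.002 FPKM in U937-CTR and 5.26, 2.28 and 0.220 FPKM in U937-AE. GLIS2 had 2.39, 6.79 and 8.85 FPKM in U937-EG, 4.76, 3.64 and 3.72 FPKM in U937-CTR and 5.60, 2.93 and 2.47 FPKM in U937-AE, so both parts of the ETO2-GLIS2 transcript were highest in the induced U937-EG libraries. Of 12 monocytic markers, 8 were at 1 FPKM or more in all 9 libraries, among them CD33, CD4 and LYZ, while MPO, CD14 and CD68 stayed under 1 FPKM in all. Of 12 markers of other lineages, 8 were under 1 FPKM in all libraries, with CD3E, CD3D, MS4A1, HBB and EPCAM among those listed at 0 throughout, and 3 were at 1 FPKM or more in all, NKG7 and PECAM1 among them. The median gene at the level of the rule had a log2 ratio of 0.14 at 48 h in each line. Relative to that shift the members' medians were 0.40 in U937-CTR, -2.03 in U937-AE and 0.79 in U937-EG.

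Monocytes and macrophages leave the blood with integrins, take up opsonised particles with Fc receptors coupled to ITAM adaptors and Src-family kinases, move with small GTPases of the Rac type, and keep these reactions in check with inhibitory receptors. Many of these genes are switched on late in myeloid differentiation, and the ETS factor PU.1, the C/EBP factors and RUNX1 are known to bind their promoters. The members held genes of each of these steps.

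The start regions of members were read for the letters these factors are known to prefer. RefSeq promoters, 250 bases before to 50 bases after a gene's start on GRCh38.p14, were found for 98 members with 157 promoters, and for 7959 of the genes at the level of the rule with 11467 promoters. Both strands were searched, and genes with several starts count once per start. TGTGGT or TGCGGT, the core that RUNX proteins bind, stood in 45 member promoters (28.7%), in 18.9% of the promoters of genes at the same level and in 19.6% of all 35116 promoters. GAGGAA, the core of PU.1 sites, stood in 51 (32.5%), against 27.7% and 27.9%. The longer GAGGAAGT, whose first letters are the same core, stood in 10 (6.37%), against 2.77% and 2.59%. CCGGAAGT, the letters of general ETS sites at housekeeping starts, stood in 2 (1.27%), against 8.5% and 4.14%. CAGCTG or CACCTG, the E-box of bHLH proteins, stood in 75 (47.8%), against 31.4% and 34.5%, and TGANTCA, the AP-1 site, in 17 (10.8%), against 4.66% and 7.71%. TTNNGCAA, the C/EBP site, stood in 16 (10.2%), against 7.42% and 10.5%. TGGGGGGT, the GLIS core, stood in 3 (1.91%), against 1.34% and 1.47%. GGGCGG, the GC box, stood in 97 (61.8%), against 68.1% and 45.0%, and AGATAA, the GATA core, in 10 (6.37%), against 5.11% and 10.3%. A match gives letters in a window and not a bound site.

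Both the RUNX core and GAGGAA stood in 15 member promoters (9.55%), against 5.29% of promoters at the same level. Among members at 5 FPKM or more in U937-AE at 0 h and in U937-EG at 48 h, 8 promoters held both. The 4 of these whose genes had the widest gap between U937-EG and U937-AE are printed, 5′ to 3′ on the gene's strand, to show how close the letters lie. Capitals mark the GAGGAA core and both forms of the RUNX core on either strand, so a match on the other strand reads as its reverse complement. In RETN, 3 PU.1 cores and 2 RUNX cores fell within the window. In TRPM2 the RUNX core and the PU.1 core lay side by side. RETN lies on chr19:7668799-7669098 (plus strand), SH3BP2 on chr4:2812041-2812340 (plus), ABCA2 on chr9:137028873-137029172 (minus) and TRPM2 on chr21:44425400-44425699 (plus).
RETN: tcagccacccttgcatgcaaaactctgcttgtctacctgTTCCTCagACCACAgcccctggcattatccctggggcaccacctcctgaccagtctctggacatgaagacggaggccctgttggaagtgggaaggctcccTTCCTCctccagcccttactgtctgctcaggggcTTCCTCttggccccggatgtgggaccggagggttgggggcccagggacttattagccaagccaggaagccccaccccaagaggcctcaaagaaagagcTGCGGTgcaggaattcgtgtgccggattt
SH3BP2: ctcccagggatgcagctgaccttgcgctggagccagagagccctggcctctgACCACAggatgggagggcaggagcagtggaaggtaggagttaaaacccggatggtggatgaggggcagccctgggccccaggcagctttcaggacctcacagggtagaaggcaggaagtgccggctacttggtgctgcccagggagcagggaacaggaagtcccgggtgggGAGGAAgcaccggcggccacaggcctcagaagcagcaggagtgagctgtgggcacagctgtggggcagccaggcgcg
ABCA2: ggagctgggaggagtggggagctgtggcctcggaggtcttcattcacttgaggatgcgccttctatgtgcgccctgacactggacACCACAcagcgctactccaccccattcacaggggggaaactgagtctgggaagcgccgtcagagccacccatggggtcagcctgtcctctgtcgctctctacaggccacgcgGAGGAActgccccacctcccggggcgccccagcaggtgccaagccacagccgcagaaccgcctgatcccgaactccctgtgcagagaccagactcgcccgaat
TRPM2: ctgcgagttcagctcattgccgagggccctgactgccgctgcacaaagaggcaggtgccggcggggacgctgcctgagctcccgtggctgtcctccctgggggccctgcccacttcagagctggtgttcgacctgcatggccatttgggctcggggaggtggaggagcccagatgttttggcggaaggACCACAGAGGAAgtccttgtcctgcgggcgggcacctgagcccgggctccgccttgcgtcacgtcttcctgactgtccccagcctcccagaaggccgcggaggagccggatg

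**Figure D1:**
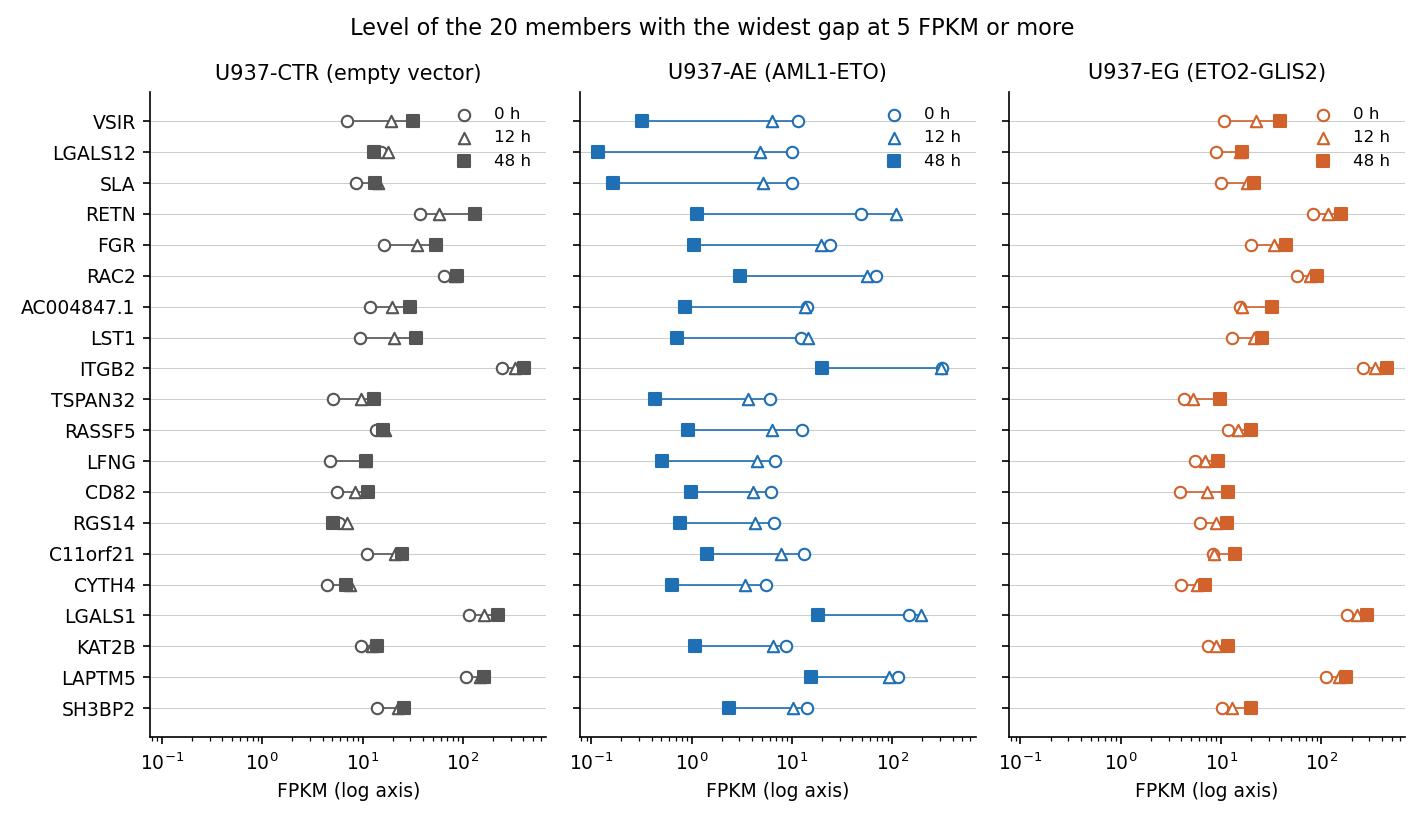
FPKM on a log axis of the 20 members with the widest gap between the log2 ratios of U937-EG and U937-AE among those at 5 FPKM or more, in the empty vector line (grey), U937-AE (blue) and U937-EG (orange), with circles for 0 h, triangles for 12 h and filled squares for 48 h. Each point is 1 library; the squares lie at the left end in U937-AE for all 20 genes and at the right end in U937-EG for all 20.

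Of all the members, small RNA genes and pseudogenes with few reads had the widest gaps. Among members at 5 FPKM or more in U937-AE at 0 h and in U937-EG at 48 h, the genes ended between 0.116 and 20.1 FPKM in U937-AE and between 6.93 and 448 FPKM in U937-EG over the 20 genes with the widest gap. VSIR, which encodes the inhibitory receptor VISTA, had 6.97, 19.3 and 31.5 FPKM at 0, 12 and 48 h in U937-CTR, 11.5, 6.34 and 0.319 FPKM in U937-AE and 10.7, 22.1 and 38.4 FPKM in U937-EG. U937-AE at 48 h was the lowest of the 9 libraries and U937-EG at 48 h the highest. The log2 ratio at 48 h was -4.79 [-5.80 to -4.60] in U937-AE, 1.83 [1.74 to 1.94] in U937-EG and 2.16 [2.05 to 2.31] in U937-CTR. LGALS12, a galectin, had 15.3, 18.0 and 12.99 FPKM in U937-CTR, 10.1, 4.77 and 0.116 FPKM in U937-AE and 8.84, 15.5 and 16.3 FPKM in U937-EG, so that the empty vector line ended under its starting level. SLA, which encodes the adaptor SLAP that restrains receptor signalling, had 8.69, 14.4 and 13.4 FPKM in U937-CTR, 10.1, 5.16 and 0.167 FPKM in U937-AE and 10.0, 18.3 and 21.4 FPKM in U937-EG. Its U937-AE library at 48 h held 19 reads against 2621 in U937-EG.

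RETN, which encodes the secreted protein resistin and is expressed by human monocytes, took a course of its own. It had 37.6, 57.4 and 130.4 FPKM in U937-CTR, 48.5, 109 and 1.15 FPKM in U937-AE and 82.6, 116 and 155 FPKM in U937-EG. In U937-AE it rose up to 12 h, with a log2 ratio of 1.17, and then fell to 9 reads at 48 h. LST1, a small leukocyte transcript of the MHC class III region, had 9.51, 20.7 and 34.2 FPKM in U937-CTR, 12.4, 14.5 and 0.720 FPKM in U937-AE and 12.8, 21.4 and 25.3 FPKM in U937-EG. LGALS1, the galectin that binds cell surface glycans, had 115, 160.5 and 226 FPKM in U937-CTR, 148, 193 and 18.0 FPKM in U937-AE and 180.3, 228 and 282 FPKM in U937-EG. For RETN, LST1 and LGALS1 U937-AE was above its starting level at 12 h and far under it at 48 h. For RETN and LST1 the log2 ratio at 48 h was lower in U937-EG than in U937-CTR, by 0.88 and 0.86.

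Genes of leukocyte adhesion were members in 5 of 27 cases from a list of integrins, selectin ligands and adhesion proteins. ITGB2, the β2 chain shared by the leukocyte integrins, had 242, 332 and 408 FPKM in U937-CTR, 311, 308 and 20.1 FPKM in U937-AE and 258, 339 and 448 FPKM in U937-EG. U937-AE was close to its starting level at 12 h and was the lowest of all libraries at 48 h. ITGAL, the αL chain that pairs with it to form LFA-1, had 4.02, 16.0 and 23.8 FPKM in U937-CTR, 2.53, 4.86 and 0.267 FPKM in U937-AE and 7.24, 15.6 and 26.8 FPKM in U937-EG. ITGAL thus rose in every line up to 12 h, and in U937-AE alone it was lower at 48 h than at 0 h. SPN, the sialomucin CD43, had 54.1, 69.0 and 79.8 FPKM in U937-CTR, 47.2, 35.2 and 16.4 FPKM in U937-AE and 46.7, 61.3 and 83.9 FPKM in U937-EG. The tetraspanins CD82 and TSPAN32 ended at 0.993 and 0.433 FPKM in U937-AE and at 11.7 and 9.77 FPKM in U937-EG.

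Genes of Fc receptor and Src-family signalling gave 3 of 31 listed genes, FGR and FCER1G among them. FGR, a Src-family kinase of myeloid cells, had 16.2, 34.9 and 53.5 FPKM in U937-CTR, 23.8, 19.3 and 1.07 FPKM in U937-AE and 19.8, 33.6 and 44.4 FPKM in U937-EG. FCER1G, the ITAM adaptor chain of Fc receptors, had 34.3, 54.1 and 133 FPKM in U937-CTR, 40.5, 41.3 and 16.8 FPKM in U937-AE and 51.6, 88.5 and 217 FPKM in U937-EG. FCER1G rose about as far in the empty vector line as in U937-EG, with log2 ratios of 1.96 [1.82 to 2.10] and 2.07 [1.96 to 2.18]. In both genes U937-AE at 48 h was the lowest library. The highest was U937-CTR at 48 h in FGR and U937-EG at 48 h in FCER1G.

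RAC2, the Rac-type GTPase of blood cells that serves both the actin cytoskeleton and the NADPH oxidase, had 64.5, 82.5 and 88.1 FPKM in U937-CTR, 68.7, 55.9 and 3.02 FPKM in U937-AE and 57.1, 77.3 and 90.3 FPKM in U937-EG. Its log2 ratio at 48 h was -4.46 [-4.79 to -4.24] in U937-AE and 0.66 [0.59 to 0.73] in U937-EG. It was the only member among 6 listed genes of the phagocyte oxidase. RAC2 and EVL, which encodes an actin regulator of the Ena/VASP family, were the 2 members among 45 listed genes of the actin cytoskeleton and its GTPases. LAPTM5, a lysosomal membrane protein of leukocytes, was among the most abundant members, with 108, 148 and 160.3 FPKM in U937-CTR, 113, 92.8 and 15.6 FPKM in U937-AE and 110.3, 151 and 178 FPKM in U937-EG. RASSF5, an effector of Rap1 and Ras, CYTH4, an exchange factor for ARF GTPases, and SH3BP2, an adaptor that binds ABL and SYK, were at 0.923, 0.636 and 2.35 FPKM in U937-AE at 48 h. In U937-EG these 3 genes had 20.1, 6.93 and 19.998 FPKM at the same time.

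Surface receptors of monocytes and macrophages gave the highest number of members, 7 of 32 listed genes: VSIR, CD93, ADGRE2, CD101, CD300A, CD300LB and SIRPB1. CD93, a C-type lectin-like receptor, had 83.7, 109 and 148 FPKM in U937-CTR, 126, 87.8 and 25.9 FPKM in U937-AE and 103, 122 and 159 FPKM in U937-EG. CD101, an inhibitory immunoglobulin-type receptor, had 1.36, 2.81 and 3.14 FPKM in U937-CTR, 1.80, 2.88 and 0.670 FPKM in U937-AE and 2.83, 5.48 and 12.4 FPKM in U937-EG. U937-EG at 48 h was the highest library for CD101, with U937-EG at 12 h the next, and U937-AE at 48 h the lowest. ADGRE2, an adhesion G protein-coupled receptor, fell from 3.78 to 0.114 FPKM in U937-AE. Over the whole list of 32 genes, 15 were at or under the lower threshold in U937-AE and 6 were at 1.5 or more there, beside 11.9% and 25.8% of all genes. In U937-EG 18 were at or over the upper threshold and in U937-CTR 14 were, beside 18.9% and 17.7% of all genes. The list's median log2 ratio was -0.51 in U937-AE, 0.67 in U937-EG and 0.40 in U937-CTR, beside 0.14 for all genes in each line.

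Chemokines, cytokines and their receptors gave 4 of 17 listed genes. TNFSF14, the TNF-family ligand LIGHT, had 4.10, 4.19 and 3.96 FPKM in U937-CTR, 3.43, 1.88 and 0.206 FPKM in U937-AE and 3.10, 5.21 and 8.16 FPKM in U937-EG. The empty vector line was flat for this gene, and U937-EG at 48 h was the highest library. IL32, a cytokine of leukocytes, had 34.7, 48.2 and 73.7 FPKM in U937-CTR, 40.6, 55.7 and 19.0 FPKM in U937-AE and 48.9, 65.4 and 80.2 FPKM in U937-EG. HBEGF, a growth factor of the EGF family, and CX3CR1, the fractalkine receptor, were the other two. Among 24 listed cytokine receptors, IL10RA and IL17RA, ligand-binding chains of the interleukin 10 and interleukin 17 receptors, were members. IL10RA had 4.31, 5.28 and 5.53 FPKM in U937-CTR, 4.45, 2.02 and 0.819 FPKM in U937-AE and 4.44, 5.00 and 8.63 FPKM in U937-EG, and IL17RA had 7.90 FPKM in U937-AE and 23.9 FPKM in U937-EG at 48 h.

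KLF13, a zinc finger factor, was the only member among 72 listed myeloid transcription factors (1.39%), close to the 1.94% of all genes at that level. KLF13 had 33.9, 41.1 and 46.2 FPKM in U937-CTR, 36.7, 24.5 and 9.85 FPKM in U937-AE and 30.3, 36.3 and 48.3 FPKM in U937-EG. In the same list of 72, 26 factors were at or under the lower threshold in U937-AE, beside 11.9% of all genes. In U937-EG 10 were at or over the upper threshold, a smaller share than the 18.9% of all genes. SPI1, which encodes PU.1, was not a member. It fell in U937-AE, with 92.6, 53.1 and 11.9 FPKM, while U937-EG had 88.0, 76.8 and 80.9 FPKM and the empty vector line 67.0, 76.9 and 97.3 FPKM. KAT2B, which encodes the acetyltransferase PCAF, was a member outside the lists, with 1.08 FPKM in U937-AE and 11.7 FPKM in U937-EG at 48 h.

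The other lists held up to 3 members each. CCNE2, CDKN2D and E2F2, which encode a cyclin, an inhibitor of cyclin-dependent kinases and a factor of S-phase entry, were 3 of 35 cell cycle genes (8.57%), and CD38, an NAD-consuming ectoenzyme, and PTPRE, a phosphatase, were 2 of 11 cell surface enzymes (18.2%). GPR132 and RGS14 were 2 of 32 genes of G protein signalling (6.25%), SLC37A2 and SLC43A2 were 2 of 29 solute carriers and iron genes (6.9%), and CTSD and PLAUR, the protease cathepsin D and the urokinase receptor, were 2 of 48 granule, lysosomal and protease genes (4.17%). Over all genes at that level the share was 1.94%. Single members were THBD (thrombomodulin) of 10 complement and coagulation genes, PTGS1 (cyclooxygenase 1) of 31 lipid mediator genes, TRPM2 (a calcium channel) of 28 calcium-binding, S100 and annexin genes, MEFV (pyrin) of 24 pattern recognition and inflammasome genes and TNFRSF10B (a TRAIL receptor) of 25 apoptosis regulators. None of 13 MHC class II and antigen presentation genes and none of 21 interferon-stimulated genes was a member. These lists are too short to read an absence against 1.94%. In U937-AE none of their genes was at or under the lower threshold, which membership requires. There 9 of the 13 and 20 of the 21 were at 1.5 or more at 48 h, beside 25.8% of all genes. In all, 40 of the 209 members stood in one of the 20 lists.

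Protein-coding genes were 136 of the 209 members (65.1%), against 86.6% of genes at the level of the rule. The others were 34 lncRNAs, 15 pseudogenes, 22 small RNA genes, 1 of another type and 1 not found in the annotation. Of the small RNA genes, 21 had at most 20 reads even in their highest library. At 5 FPKM or more in U937-AE at 0 h and in U937-EG at 48 h there were 77 members, 71 of them protein-coding, and for 85 members (77 protein-coding) the whole interval of both ratios lay past the thresholds. U937-AE at 48 h was listed at 0 for 18 members and U937-EG at 0 h for 11. With those values set to the 3 reads that a count of 0 allows, the members' median log2 ratio at 48 h was -1.68 in U937-AE, 0.88 in U937-EG and 0.52 in U937-CTR, beside -1.89, 0.93 and 0.55 as deposited. Of 208 members with exons found, 6 had 50% or more of their exon bases under other genes, and all of the 6 were non-coding or artifact annotations.

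The thresholds cut through a continuous range. Among genes at 5 FPKM or more in U937-AE at 0 h and in U937-EG at 48 h, those just inside the U937-AE threshold were FUCA1, MBP and IL32, with ratios of 0.493, 0.482 and 0.471, and just outside it AC068580.1, EEPD1 and DOK3, with 0.505, 0.511 and 0.512. On the U937-EG side ARSB, PTK2B and GPAT3 were just inside with 1.5001, 1.512 and 1.523, and AC011899.2, ARHGAP4 and IFNGR2 just outside with 1.495, 1.492 and 1.491.

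**Figure D2:**
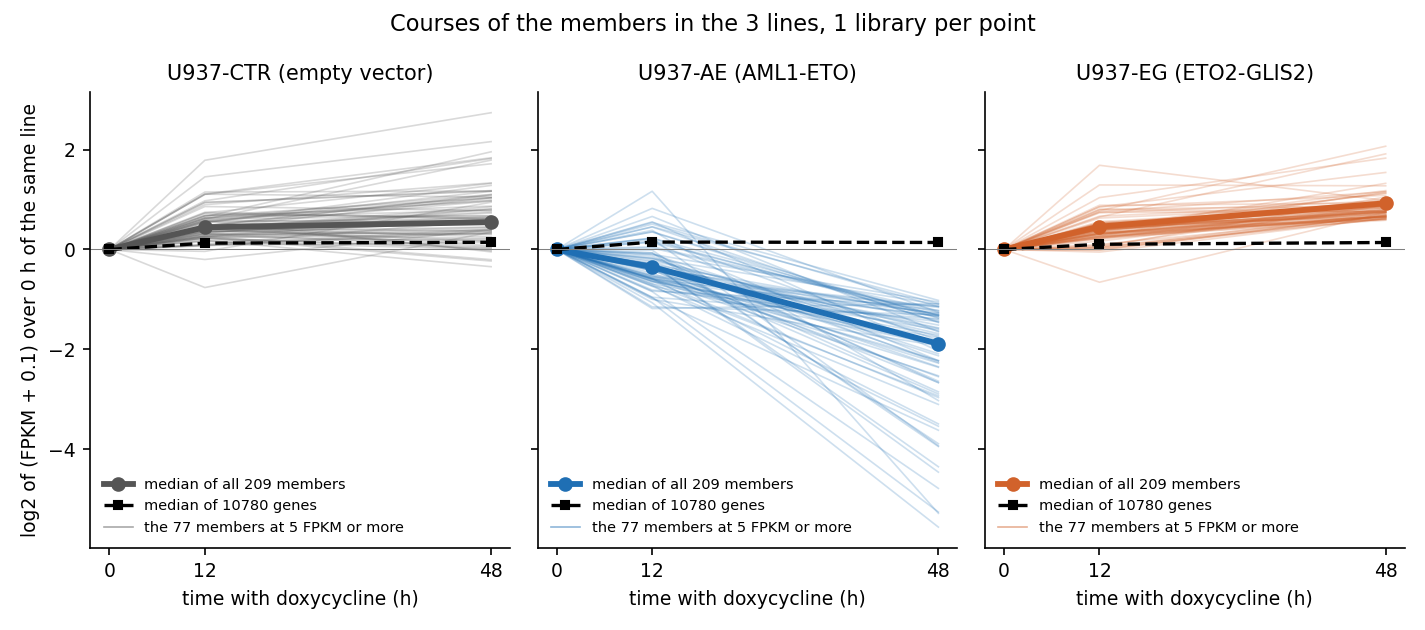
Log2 of (FPKM + 0.1) relative to 0 h of the same line against time with doxycycline (h), for the empty vector line, U937-AE and U937-EG. Thin lines are the 77 members at 5 FPKM or more, the thick line is the median of all 209 members and the dashed black line the median of 10780 genes; the members' median is at 0.44, -0.35 and 0.46 at 12 h and at 0.55, -1.89 and 0.93 at 48 h.

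Most of the fall in U937-AE came after 12 h. The members' median log2 ratio was -0.35 at 12 h and -1.89 at 48 h, and 28 of 209 members (13.4%) were at or under 0.5 at 12 h, beside 2.06% of all genes at that level. For 149 members the 12 h level lay between those at 0 h and 48 h, for 52 it was above 0 h and for 8 it was under 48 h. Over all 10780 genes, 7038 were above 0 h in U937-AE at 12 h, so members rose early less often. The other counts were not computed over all genes. At 5 FPKM or more, 19 of 77 were above their starting level at 12 h. In U937-AE 15 members (7.18%) were up at least 1.5-fold at 12 h, beside 13.6% of all genes, and MFAP4, RETN and TIMP1 were the 3 of these at 5 FPKM or more. TIMP1, an inhibitor of metalloproteinases, had 28.2, 44.7 and 8.95 FPKM in U937-AE, and MFAP4, an extracellular matrix glycoprotein, had 6.56, 11.7 and 2.69 FPKM there. LGALS12, AC004687.1 and PIM1 were the 3 members at this level that were already at or under 0.5 at 12 h. PIM1, a kinase induced by cytokines, had 17.2, 7.68 and 6.88 FPKM in U937-AE, so that its fall was nearly complete by 12 h.

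The rise in U937-EG was gradual. At 12 h the members' median log2 ratio was 0.46, and 77 members (36.8%) were at 1.5 or more, beside 7.13% of all genes. The 12 h level lay between 0 h and 48 h for 167 members and for 70 of the 77 at 5 FPKM or more. It was above 48 h for 25 members and under 0 h for 17, beside 3501 of all 10780 genes under 0 h. FUCA1, the lysosomal fucosidase, was flat after 12 h, with 99.9, 168 and 169 FPKM, and FCER1G rose mainly after 12 h. The 12 h ratios share their 0 h library with the rule, so a low or high 0 h value moves both.

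The empty vector line also rose. Its log2 ratio at 48 h had a median of 0.55 over the members, against 0.14 over all genes. In U937-CTR 96 of 209 members (45.9%) were at 1.5 or more, beside 17.7% of all genes, and 12 (5.74%) were at or under 1/1.5, beside 6.19%. At 12 h 79 members (37.8%) were at 1.5 or more, beside 11.3%. The U937-EG genes that stayed over 0.5 in U937-AE had the same feature: 49.7% of those 1832 genes were at 1.5 or more in the empty vector line. Of the 1078 genes at or under 0.5 in U937-AE but under 1.5 in U937-EG, 5.84% were. At 5 FPKM or more, 42 of 77 members were at 1.5 or more in U937-CTR at 48 h and 0 at or under 1/1.5, and for 52 of 77 the 12 h level lay between 0 h and 48 h. Every line received doxycycline and was cultured for the same times, and the parts of the drug and of time in the rise cannot be told apart.

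Set against the empty vector line, the rise in U937-EG was larger for some members and smaller for others. The U937-EG ratio was at least 1.5 times the U937-CTR ratio for 81 members (38.8%), beside 8.95% of all genes, and at most 1/1.5 of it for 12 (5.74%), beside 8.01%. Since a high U937-EG ratio was required of the members, the first of these shares is partly set by the rule. At 5 FPKM or more the numbers were 12 and 4 of 77. Among the 12 were ABCA2, AC079466.1, E2F2, GAPT, LGALS12, MOB3A, NBEAL2, PLEC, PTGS1, RASA3 and RGS14. The 4 were CTSD, LST1, MFAP4 and RETN. U937-EG at 48 h was the highest of the 9 libraries for 48 of the 77 and U937-CTR at 48 h for 19. The rule required a rise in U937-EG at 48 h, so these counts are partly set by it. The shares over all genes were not computed.

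RGS14, a regulator that speeds GTP hydrolysis by Gi proteins, had 5.79, 6.97 and 5.02 FPKM in U937-CTR, 6.64, 4.27 and 0.763 FPKM in U937-AE and 6.10, 8.86 and 11.5 FPKM in U937-EG. Its log2 ratio at 48 h was -0.20 [-0.44 to 0.02] in U937-CTR and 0.91 [0.74 to 1.09] in U937-EG. The rule required the U937-EG rise, and a low empty vector ratio was among the grounds for naming this gene. ABCA2, a lipid transporter of lysosomes, had 3.33, 3.80 and 2.60 FPKM in U937-CTR, 6.28, 3.86 and 1.78 FPKM in U937-AE and 3.25, 3.30 and 5.25 FPKM in U937-EG. Before doxycycline U937-AE had the highest level of ABCA2 of all libraries. PTGS1 had 11.6, 14.4 and 12.0 FPKM in U937-CTR, 10.3, 12.2 and 2.85 FPKM in U937-AE and 10.99, 16.2 and 20.05 FPKM in U937-EG. E2F2 had 12.0, 17.2 and 11.8 FPKM in U937-CTR, 8.19, 6.73 and 1.66 FPKM in U937-AE and 6.50, 11.4 and 11.1 FPKM in U937-EG, so that its U937-EG level at 48 h was under that of the empty vector line although the ratio was higher. The lncRNA AC079466.1 had 21.1, 31.5 and 20.4 FPKM in U937-CTR, 18.4, 27.1 and 4.43 FPKM in U937-AE and 16.1, 39.6 and 39.1 FPKM in U937-EG. NBEAL2, a granule biogenesis gene, RASA3, a Ras GTPase-activating protein, and PTK2B, the kinase PYK2, had empty vector log2 ratios of -0.00, 0.01 and 0.03 at 48 h.

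CTSD, at the other end, had 29.97, 59.0 and 106 FPKM in U937-CTR, 39.5, 56.3 and 17.8 FPKM in U937-AE and 87.0, 124 and 136 FPKM in U937-EG. Its uninduced level was higher in U937-EG than at 0 h in either other line. In MFAP4 the empty vector line reached 57.4 FPKM at 48 h and U937-EG 21.8 FPKM, from 8.51 and 5.72 FPKM.

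Comparison of the lines at the same time point shows where the levels parted. At 0 h 8 members (3.83%) were lower in U937-AE than in U937-CTR by 1.5-fold, beside 2.19% of all genes, 28 (13.4%) were higher in U937-EG than in U937-CTR, beside 9.3%, and 13 (6.22%) lower in U937-AE than in U937-EG, beside 6.04%. The median log2 ratio of U937-AE over U937-CTR at 0 h was 0.22 over the members and 0.01 over all genes, so the uninduced AML1-ETO clone started slightly above the empty vector line. For U937-EG over U937-CTR at 0 h the median was -0.12 over the members and -0.01 over all genes. A high start in U937-AE and a low start in U937-EG both favour membership under the rule.

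At 12 h, in libraries that were not used for the choice, the difference lay mainly with U937-AE. There 105 members (50.2%) were lower in U937-AE than in U937-CTR by 1.5-fold, beside 8.4% of all genes, and 91 (43.5%) lower in U937-AE than in U937-EG, beside 5.71%. In contrast, 25 members (12.0%) were higher in U937-EG than in U937-CTR at 12 h, beside 6.68%. The median log2 ratio at 12 h was -0.60 for U937-AE over U937-CTR and -0.13 for U937-EG over U937-CTR, with 0.03 and -0.03 over all genes. The rule asked for a larger change in U937-AE (at most 0.5) than in U937-EG (at least 1.5) of the same clones. The 12 h difference is therefore not independent of it. Genes at or under 0.5 in U937-AE at 48 h but under 1.5 in U937-EG had a median of -0.36 for U937-AE over U937-CTR. Genes at 1.5 or more in U937-EG at 48 h but over 0.5 in U937-AE had -0.22 for U937-EG over U937-CTR. At 5 FPKM or more 42 of 77 members were lower in U937-AE than in the empty vector line, and 8 of 77 higher in U937-EG: CTSD, FCER1G, FUCA1, GAPT, HPD, RETN, TIMP1 and TPSAB1. TPSAB1, a tryptase gene with a near-identical neighbour, may share its reads with that copy. The 12 h libraries of different lines were each compared with the same U937-CTR library.

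**Figure D3:**
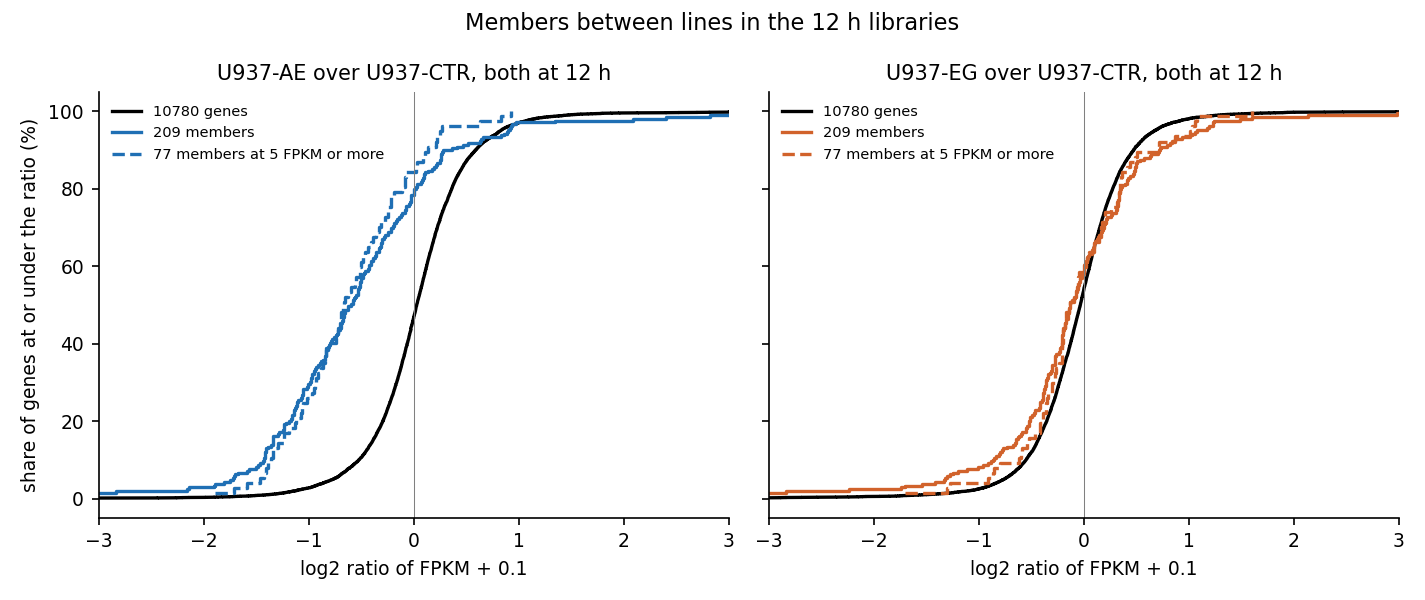
Share of genes (%) at or under each log2 ratio between lines at 12 h, for U937-AE over U937-CTR (left) and U937-EG over U937-CTR (right), in all 10780 genes (black), 209 members (solid colour) and 77 members at 5 FPKM or more (dashed). The members' curve lies left of the black curve for U937-AE, with a median of -0.60, and close to it for U937-EG, with a median of -0.13.

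At 48 h 192 members (91.9%) were lower in U937-AE than in U937-CTR by 1.5-fold, beside 20.8% of all genes, and 204 (97.6%) lower than in U937-EG, beside 21.0%. In U937-EG 70 members (33.5%) were higher than in U937-CTR by 1.5-fold, beside 7.23%, and 13 of the 77 at 5 FPKM or more. U937-AE at 48 h was the lowest of all 9 libraries for 186 members, and for 76 of the 77, with AC004687.1 as the exception. These 48 h libraries chose the members, so the shares are a description.

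Some members lie beside each other in the genome. Of 167 members with a RefSeq position on GRCh38.p14, 25 were within 100 kb of another member. On chromosome 19, STXBP2 (7629793 to 7647873), RETN (7669049 to 7670455) and MCEMP1 (7677090 to 7679829) followed each other. PCP2 (7631615 to 7637006) lay within the span of STXBP2, with 25.7% of its exon bases under genes of the other strand. PCP2 reads, at most 42 in any library, may therefore not be separate. STXBP2, which encodes a protein of granule exocytosis, had 10.3, 13.2 and 3.95 FPKM in U937-AE and 9.35, 11.7 and 16.2 FPKM in U937-EG, and MCEMP1, a membrane protein of mast cells and monocytes, had 11.04, 7.31 and 2.07 FPKM in U937-AE and 13.9, 17.1 and 22.003 FPKM in U937-EG. STXBP2 and RETN were above their starting level in U937-AE at 12 h and MCEMP1 was under it. Other pairs were THBD and CD93 on chromosome 20, CD300A and CD300LB on chromosome 17, RAC2 and CYTH4 on chromosome 22, and MMP25 and IL32 on chromosome 16. C11orf21 and TSPAN32 on chromosome 11 overlap. Of their exon bases 1.89% and 2.03% lay under genes of the other strand, and only reads from there may not be separate. The rate at which genes at this level lie within 100 kb of each other was not computed.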

How the data were processed

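RNA of the 9 libraries was extracted with TRIzol and made into libraries with the TruSeq RNA kit, version 2, which does not mark strand. The authors aligned reads to hg38 with HISAT2 (2.0.5), handled alignments with SAMtools (1.7), counted reads per gene with HTSeq (0.9.1) under default settings and deposited FPKM for every gene. The submitters' processing notes also list DESeq2 (1.22.2), which was not used here. The annotation version is not given in the sources used here.

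Ratios were computed from the deposited FPKM after adding 0.1 FPKM, which understates changes of low genes. Reads were recovered from the FPKM steps, for 23860 of 23889 genes above 0 in at least 3 libraries, and were used for intervals only. Recovery and selection were tested on simulated data. Python (3.11.15), numpy (2.4.6), pandas (2.3.3), scipy (1.17.1) and matplotlib (3.10.9) were used.

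The members, the 20 function lists, the markers and the motifs were chosen with earlier results of these data known. Named are the 20 members with the widest gap between U937-EG and U937-AE at 5 FPKM or more, members of a list, the 10 with the lowest empty vector ratio and the 3 on each side of a threshold. Others (TIMP1, MFAP4, PIM1, FUCA1, MCEMP1, STXBP2 and the members given by count) were named after their values were seen. Gene types and exon overlaps came from a GRCh37 annotation by identifier. Alternatives covered the pseudocount, scaling, level, thresholds, time and gene type. A few genes are not reported here.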

Additional observations from a re-analysis of the deposited data

Results flagged for a closer look

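Of the 77 members at 5 FPKM or more, 6 had a log2 ratio under 0 in the empty vector line at 48 h. Over all 10780 genes, 3993 were under 0 there. The rule required the rise in U937-EG. In 3 of the 6 members the empty vector ratio was 0.9 or less. The difference between their log2 ratios (U937-EG minus U937-CTR) was 1.109 for RGS14, 1.107 for LGALS12 and 1.023 for ABCA2. With 1 library per line and time these differences were not tested. Over all members the median difference between U937-EG and U937-AE was 2.955 on the log2 scale. The rule that chose the members fixes the direction of this difference, and its size was not tested.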

How the results depend on the processing

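The number of members depended on the thresholds and on the level. There were 119 members with a pseudocount of 1 FPKM, 621 with no filter on the level, 77 at 5 FPKM or more, 87 with a U937-EG ratio of at least 2, 96 with a U937-AE ratio of at most 0.25, 81 with a U937-EG ratio at least 1.5 times that of the empty vector line, 113 with an empty vector ratio under 1.5, 39 with 12 h in place of 48 h, and 85 with the whole interval past both thresholds. The members' median log2 ratio in the empty vector line was 0.4364 with a pseudocount of 1 FPKM, 0.4193 after median-ratio scaling and 0.4434 at 12 h. Members at or under 0.5 in U937-AE at 12 h numbered 15 with a pseudocount of 1 FPKM. Among members at 5 FPKM or more, 42 were raised in U937-CTR at 48 h, 3 were at or under 0.5 in U937-AE and 15 raised in U937-EG at 12 h. At 12 h, 42 of them were lower in U937-AE than in U937-CTR, 8 higher in U937-EG than in U937-CTR and 35 lower in U937-AE than in U937-EG. With a ratio of at least 2, 54 members were raised in U937-CTR at 48 h and 37 in U937-EG at 12 h. Counting any difference in direction at 12 h gave 166, 86 and 163 members in the same order, with equal levels counted as well. Without the equal levels the counts were 164, 83 and 159 of 209 members, beside 5031, 4969 and 4687 of all 10780 genes. For U937-EG over U937-CTR the members' share was thus not above that of all genes. With protein-coding members only, a setting chosen after seeing the data, 14 were higher in U937-EG than in U937-CTR at 12 h. Of 177 empty vector ratios recomputed for 59 named members, 147 stayed within the margin of their counting interval and 30 moved beyond it, with ITGB2, which has no interval, counted among the latter. The ratios past 1.5-fold did not change direction.

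No paired analysis was possible because each condition has 1 library. Spread between cultures and clones is unknown, and the intervals cover reads only. Members with few reads, among them 21 small RNA genes with at most 20 reads, may owe their place to counting error. Clone and fusion protein cannot be told apart, since each fusion line is 1 clone.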
